A study of Mus musculus with 8 samples.

Results

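H2A.Z peaks at the ends of long non-coding RNA (lncRNA) genes were taken from ChIP-seq of mouse testis at postnatal day 14. A peak was included when it lay within 1 kb of either end of a RefSeq lncRNA gene and more than 1 kb from both ends of every protein-coding gene. The rule used position alone. It found 3362 of the 48752 control peaks and 1913 of the 31156 Znhit1-CKO peaks, 5275 of 79908 in all. The control peaks lay at 3048 of 12727 annotated lncRNA genes. A further 2004 of the 5366 control peaks at a lncRNA end were left out because they also lay at a protein-coding gene end.

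The study asked how ZNHIT1 shapes the genomic occupancy of H2A.Z in male germ cells. It sequenced 8 libraries. Control testes and Znhit1-CKO testes (a conditional knockout, written Znhit1-sKO in the protocol) each gave 2 H2A.Z immunoprecipitates and 2 inputs, which makes 4 groups. The authors deposited 1 list of peaks per genotype and 1 list of differential regions. All 4 groups came from testes dissociated with enzymes at postnatal day 14. No sorting is named, so somatic cells of the testis may be in each library beside germ cells. The sources used here do not give the driver of the deletion, the background strain or the genotype of the controls. Peak lists hold no expression, so neither the deletion of Znhit1 nor the cell type could be checked. The depth of each library is unknown beyond the minimum that the protocol states for all of them.

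H2A.Z is a variant of histone H2A that marks active and poised promoters, usually in the nucleosomes that flank the transcription start, and many enhancers. The SRCAP complex, of which ZNHIT1 is a subunit, exchanges H2A for H2A.Z in nucleosomes. A lncRNA is a transcript with little coding potential, and many lncRNA genes are expressed in few tissues. The testis transcribes more lncRNA genes than most organs, many of them in meiotic and later germ cells.

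The promoters below belong to lncRNA genes with a wide control peak at the start, or with a peak that the X-inactivation results turn on. They come from the RefSeq promoter table (build GRCm38.p6, which has the coordinates of mm10) and run 5′ to 3′ on the strand of the gene from 250 bases before the start to 50 after it. Capitals mark CG dinucleotides. The table held 2325 of the 3048 lncRNA genes, and 1917 of the 3362 control peaks had a promoter start within 1 kb. The first set holds 3 of the widest control peaks that overlapped a Znhit1-CKO peak.
1700031P21Rik, chr12:52602273-52602572, minus strand: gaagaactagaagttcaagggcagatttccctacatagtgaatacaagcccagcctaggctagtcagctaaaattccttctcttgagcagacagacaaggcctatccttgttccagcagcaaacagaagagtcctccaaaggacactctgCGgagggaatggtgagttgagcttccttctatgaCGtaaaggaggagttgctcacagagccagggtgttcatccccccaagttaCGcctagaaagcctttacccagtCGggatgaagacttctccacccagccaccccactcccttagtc
Mirc35hg, chr6:30174076-30174375, minus strand: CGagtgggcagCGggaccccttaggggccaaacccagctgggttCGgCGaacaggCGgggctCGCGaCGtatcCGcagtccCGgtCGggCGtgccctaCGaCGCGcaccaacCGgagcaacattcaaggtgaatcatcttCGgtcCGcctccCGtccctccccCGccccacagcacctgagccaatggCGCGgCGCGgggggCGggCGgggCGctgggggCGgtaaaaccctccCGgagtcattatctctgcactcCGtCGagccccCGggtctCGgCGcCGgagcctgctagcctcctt
2410080I02Rik, chr19:23134248-23134547, plus strand: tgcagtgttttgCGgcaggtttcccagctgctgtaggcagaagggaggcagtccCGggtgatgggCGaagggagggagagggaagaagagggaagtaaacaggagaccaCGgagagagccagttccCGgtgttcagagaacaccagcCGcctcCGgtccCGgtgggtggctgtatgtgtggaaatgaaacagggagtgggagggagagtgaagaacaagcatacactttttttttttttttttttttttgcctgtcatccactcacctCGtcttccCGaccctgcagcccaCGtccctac
The next set holds 3 of the widest control peaks that overlapped none.
1700049E22Rik, chr6:100527150-100527449, plus strand: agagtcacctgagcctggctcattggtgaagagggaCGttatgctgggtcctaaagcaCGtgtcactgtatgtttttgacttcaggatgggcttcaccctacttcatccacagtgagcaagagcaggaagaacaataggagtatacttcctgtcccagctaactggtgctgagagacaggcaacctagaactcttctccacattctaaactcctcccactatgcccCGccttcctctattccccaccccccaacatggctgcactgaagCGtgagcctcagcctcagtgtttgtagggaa
4833428L15Rik, chr9:45431183-45431482, minus strand: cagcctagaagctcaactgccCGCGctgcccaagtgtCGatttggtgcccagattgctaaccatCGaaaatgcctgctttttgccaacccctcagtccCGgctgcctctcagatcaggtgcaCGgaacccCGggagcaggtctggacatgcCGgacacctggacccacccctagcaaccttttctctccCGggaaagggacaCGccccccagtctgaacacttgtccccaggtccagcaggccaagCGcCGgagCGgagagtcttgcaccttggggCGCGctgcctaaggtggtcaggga
4933411E08Rik, chr10:117925209-117925508, plus strand: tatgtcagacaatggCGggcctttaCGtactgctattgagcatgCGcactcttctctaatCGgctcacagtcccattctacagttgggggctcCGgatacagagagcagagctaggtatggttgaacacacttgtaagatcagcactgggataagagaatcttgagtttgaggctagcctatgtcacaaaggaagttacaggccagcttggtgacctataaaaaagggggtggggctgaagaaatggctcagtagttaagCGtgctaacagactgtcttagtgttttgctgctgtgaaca
The last pair comes from the X-inactivation centre, where the Jpx peak was kept and the Xist peak was not. The Xist peak lies 621 bp from the start, outside the promoter printed here, and the other 7 peaks contain the start.
Jpx, chrX:103493308-103493607, plus strand: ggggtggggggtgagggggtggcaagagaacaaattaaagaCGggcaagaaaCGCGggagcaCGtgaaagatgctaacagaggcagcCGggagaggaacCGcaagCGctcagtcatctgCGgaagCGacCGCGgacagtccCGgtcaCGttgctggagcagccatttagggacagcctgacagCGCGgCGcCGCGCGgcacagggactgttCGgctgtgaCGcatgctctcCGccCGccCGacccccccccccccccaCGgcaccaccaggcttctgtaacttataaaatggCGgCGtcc
Xist, chrX:103483184-103483483, minus strand: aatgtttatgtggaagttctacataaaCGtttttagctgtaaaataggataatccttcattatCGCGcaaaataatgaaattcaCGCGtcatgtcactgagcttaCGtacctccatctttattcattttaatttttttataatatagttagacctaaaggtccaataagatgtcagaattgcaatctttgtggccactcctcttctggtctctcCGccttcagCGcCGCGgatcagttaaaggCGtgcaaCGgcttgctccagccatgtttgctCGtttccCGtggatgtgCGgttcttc
The CG-richest of these promoters were at kept peaks, and both outcomes had promoters poor in CG. Mirc35hg held 35 CG dinucleotides and Jpx 27, and their peaks were kept, but 1700031P21Rik held 4 and had the widest kept peak of the set. That peak also lay at an end of another lncRNA gene, Gm35239, whose promoter is not printed here. Among the lost ones, 4833428L15Rik held 15, 4933411E08Rik 6 and 1700049E22Rik 4.

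Fewer than 1 in 2 lncRNA-end peaks of the control list had a Znhit1-CKO peak at the same place. A control peak was called kept where a Znhit1-CKO peak overlapped it by at least 1 bp, and lost otherwise. Of the 3362 peaks, 1548 were kept (46.0%, 95% exact binomial interval 44.3 to 47.7%) and 1814 were lost (54.0%, 52.3 to 55.7%). Over all control peaks 50.7% were lost. At protein-coding gene ends 82.0% of 15147 peaks were kept, and away from both kinds of gene end 33.2% of 30243 were. The odds of loss at lncRNA ends were 5.35 times those at protein-coding gene ends (4.94 to 5.79, logistic regression over all control peaks) and 0.583 times those of peaks away from gene ends (0.543 to 0.627). With 1 list per genotype no value here has a replicate error. Intervals cover counting error only and treat peaks as independent, which neighbouring peaks are not. In these bulk samples fewer cells of a type and less H2A.Z per cell cannot be told apart, and the part of sequencing depth in the difference between the lists was not tested.

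The Znhit1-CKO list thus held 56.9% as many lncRNA-end peaks as the control list (53.8 to 60.2%), covering 49.8% of the length. At protein-coding gene ends the number was 89.7% and the length 73.2%, and away from gene ends they were 51.8% and 44.2%. Over all peaks the number was 63.9% and the length 58.0%.

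Peaks at lncRNA ends were intermediate in width as well. Their median in control was 736.5 bp (quartiles 474 and 1096 bp, range 205 to 3898 bp), against 1331 bp at protein-coding gene ends and 583 bp away from gene ends. On the log2 scale they were narrower than the former by a mean difference of -0.70 (-0.73 to -0.67) and wider than the latter by 0.30 (0.27 to 0.33). Width moved with loss: lost lncRNA-end peaks had a median of 561.5 bp and kept ones of 1031 bp. Once log2 width entered the fit, the odds ratio for loss was 2.87 (2.62 to 3.15) against protein-coding gene ends and 0.796 (0.733 to 0.864) against peaks away from gene ends. The lists carry no score, so width was the only measure of a peak's size.

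The difference from protein-coding gene ends depended on width. Control peaks were divided into 4 groups of about equal size. Among those of 205 to 455 bp, 80.2% of lncRNA-end and 81.1% of protein-coding gene-end peaks were lost, with an odds ratio of 0.944 (0.75 to 1.19). Of peaks of 456 to 742 bp, 70.6% and 53.2% were lost. Between 743 and 1225 bp the shares were 45.3% and 19.3%. Among the widest, from 1226 to 6326 bp, 12.1% of lncRNA-end peaks were lost against 2.55%, an odds ratio of 5.28. Peaks away from gene ends in this widest group were lost at 24.7%. In the narrower groups, peaks away from gene ends were lost at 83.7%, 72.2% and 52.5%, from the narrowest up. The lncRNA-end peaks therefore lay near both other classes only in the narrowest group. At 456 to 742 bp they lay near peaks away from gene ends alone (odds ratio 0.927, 0.799 to 1.08). From 743 bp up they lay between both classes.

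**Figure D1:**
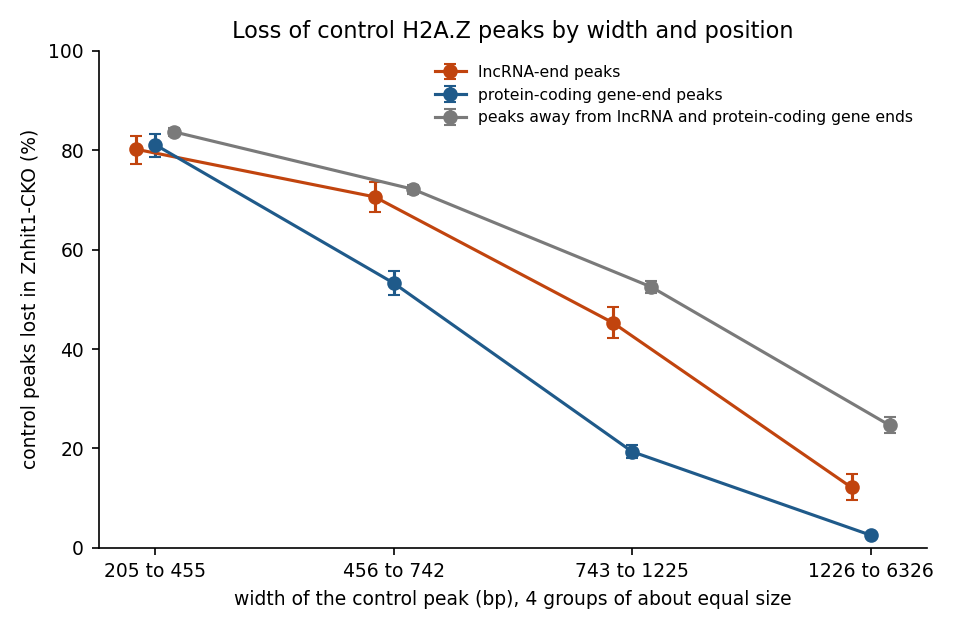
Percent of control H2A.Z peaks lost in Znhit1-CKO (y axis) in 4 groups of control peak width in bp (x axis), for lncRNA-end peaks, protein-coding gene-end peaks and peaks away from both; points are shares and bars exact 95% binomial intervals. The lncRNA-end share falls from 80.2% in the narrowest group to 12.1% in the widest, where it lies between 2.55% and 24.7%.

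The authors' differential regions lay on 1609 of the 3362 lncRNA-end control peaks (47.9%, 46.2 to 49.6%), against 48.9% of all control peaks. This list gives neither the direction nor the size of a change. A region lay on 1003 of the 1814 lost peaks (55.3%, 53.0 to 57.6%) and on 606 of the 1548 kept ones (39.1%, 36.7 to 41.6%). The remaining 811 lost peaks had no region, so that a loss from the peak list and a differential call were separate readouts at these genes. Regions were less frequent than at protein-coding gene ends (59.6%, odds ratio 0.621, 0.576 to 0.669) and more frequent than away from gene ends (43.6%, 1.19, 1.10 to 1.27). Both directions turned once log2 width entered the fit, to 1.15 (1.06 to 1.24) and 0.913 (0.846 to 0.986). Among lncRNA-end peaks the share with a region rose from 20.6% in the narrowest width group to 46.3%, 60.8% and 62.6% in the wider ones.

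Where both lists had a peak at a lncRNA end, the Znhit1-CKO peak was usually the narrower. The 1411 control peaks that paired with 1 Znhit1-CKO peak and no other had a median width of 1002 bp in control and 689 bp in Znhit1-CKO. The median log2 ratio of Znhit1-CKO over control width was -0.32 (-0.35 to -0.29). It was -0.24 for 11059 pairs at protein-coding gene ends and -0.33 for 9570 pairs away from gene ends. The Znhit1-CKO peak was narrower in 1130 pairs (80.1%, 77.9 to 82.1%), against 79.0% of all pairs. A log2 ratio of -1 or less was found at 267 pairs (18.9%, against 13.4% of all pairs). That share was 17.8% away from gene ends and 8.85% at protein-coding gene ends. A log2 ratio of 1 or more was found at 13 pairs (0.921%, against 1.18% of all pairs). Here the shares were 2.38% away from gene ends and 0.163% at protein-coding gene ends. The 542 pairs with a differential region had a median of -0.49 and the 869 without one of -0.24. Pairs with a region also had the wider control peaks, with a median of 1242.5 bp against 834 bp. Another 106 control peaks overlapped 2 or more Znhit1-CKO peaks and had a median control width of 1653 bp. Of all control peaks 3.42% were split in this way. Over the kept peaks, Znhit1-CKO peaks covered a median of 74.8% of the control peak.

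**Figure D2:**
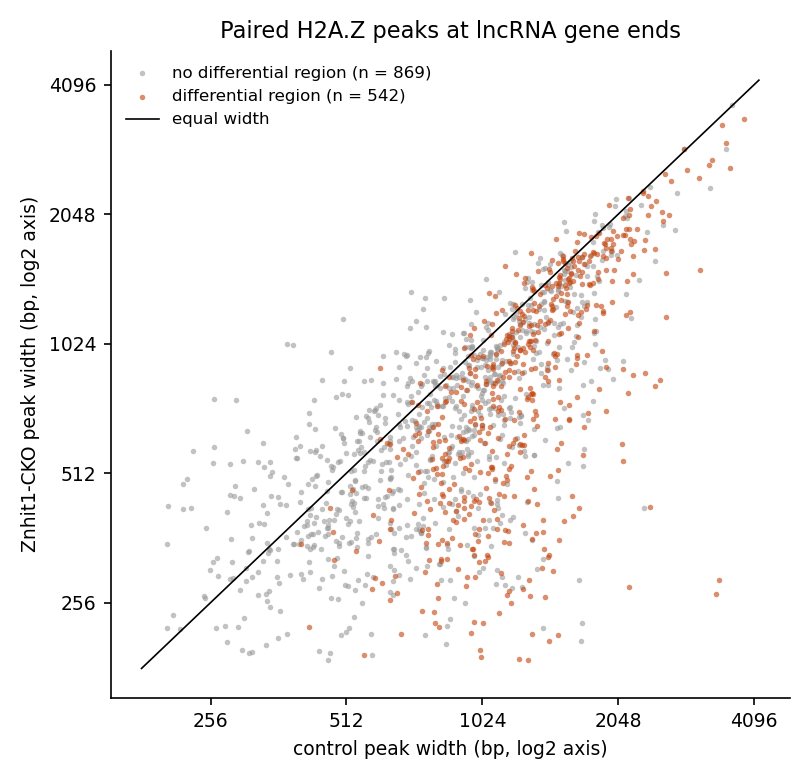
Width of the Znhit1-CKO peak (y axis, bp, log2 axis) against the width of its control peak (x axis, bp, log2 axis) for the 1411 one-to-one pairs at lncRNA ends; orange points have a differential region (542) and grey points have none (869), and the line marks equal width. Most points (1130) lie below the line, and the spread below it is wide, down to a log2 ratio of -3.65.

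Leaving out Gm and LOC genes, the 5 lowest ratios all belonged to control peaks of 1011 bp or more at a start. A peak of 3375 bp on chromosome 6, shared by Mirc35hg, a microRNA cluster host gene, and BB283400, met a Znhit1-CKO peak of 268 bp, a log2 ratio of -3.65. It lies 19455 bp from Nrf1. At 2600014E21Rik the width was 2414 bp in control and 428 bp in Znhit1-CKO, a log2 ratio of -2.50. At AA387883 it was 2335 bp and 424 bp (-2.46), and at 1700020N01Rik 1019 bp and 191 bp (-2.42). In each of these the Znhit1-CKO peak left most of the control peak uncovered. Mir22hg, the host gene of a microRNA, had 2 control peaks at its start. One went from 1011 bp to 199 bp (-2.34) and had a differential region, and the other, of 1990 bp, overlapped Znhit1-CKO peaks of up to 1247 bp and had none. The 3 highest ratios at such genes came from control peaks of 730 bp or less without a region. At A830011K09Rik the control peak measured 291 bp and the Znhit1-CKO peak 757 bp (1.38). The widths were 227 and 496 bp at 4930556I23Rik (1.13) and 730 and 1157 bp at 2700046A07Rik (0.66).

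Of the 1913 Znhit1-CKO peaks at lncRNA ends, 290 had no control peak (15.2%, 13.6 to 16.8%), against 17.9% of all Znhit1-CKO peaks, 2.28% at protein-coding gene ends and 31.7% away from gene ends. Their median width was 379 bp, where the 1623 others had 679 bp, and 214 of them were under 500 bp. The share depended on the overlap required and on width. It was 41.6% where the overlap had to reach 50% of each peak, 6.38% among peaks of at least 500 bp, and 9.31% without Gm and LOC genes. A differential region lay on 19 of the 290 (6.55%, 3.99 to 10.0%), against 6.91% of all Znhit1-CKO peaks without a control peak. The widest, of 1503 bp at 4933400C23Rik on chromosome 9, had a region. The next 4 at genes without Gm or LOC symbols had none. These were 2 peaks of 860 and 773 bp at G530011O06Rik, inside Mid1 on the X chromosome, 1 of 846 bp at 4931406H21Rik inside Zmiz1, and 1 of 760 bp at Lyrm7os.

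The number of CG dinucleotides in the promoter separated kept from lost lncRNA-end peaks mainly at its upper end. CpG-rich promoters in mammals are usually unmethylated and open in many tissues, whereas CpG-poor ones are more often tissue-restricted. Promoters at lncRNA-end peaks held a median of 7 CG in 300 bases, against 4 over all lncRNA promoters of the table and 13 over protein-coding ones. The median was 9 at kept and 6 at lost peaks. The median ratio of observed to expected CG was 0.442 at kept and 0.351 at lost peaks, against 0.245 for all lncRNA promoters. With 0 to 2 CG, 60.8% of 209 peaks were lost. The share was 59.3% of 482 with 3 to 5 CG, 58.9% of 633 with 6 to 10, and 47.0% of 389 with 11 to 20. With 21 or more it was 14.2% of 204 (9.73 to 19.8%). Width moved with CG number too, from a median of 656 bp in the first of these bins to 1362 bp in the last. Each 5 further CG went with an odds ratio for loss of 0.694 (0.650 to 0.741), and, with log2 width in the fit, one of 0.799 (0.742 to 0.859).

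At like CG numbers more lncRNA-end than protein-coding gene-end peaks were lost, except in the CG-poorest bin, where the intervals overlapped. At protein-coding gene ends the shares were 55.3%, 43.1%, 30.1%, 11.8% and 6.11% from the poorest to the richest bin. Over peaks with a promoter in the table, 52.1% of 1917 lncRNA-end peaks and 12.9% of 10669 protein-coding gene-end peaks were lost, an odds ratio of 7.32. It was 3.39 with CG number as a covariate, 3.72 with log2 width, and 2.54 (2.2 to 2.93) with both. Width ratios of pairs did not follow the CG bins in order. Their median log2 ratio was -0.31 with 0 to 2 CG, -0.38 with 11 to 20, and -0.24 (-0.31 to -0.18) with 21 or more.

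**Figure D3:**
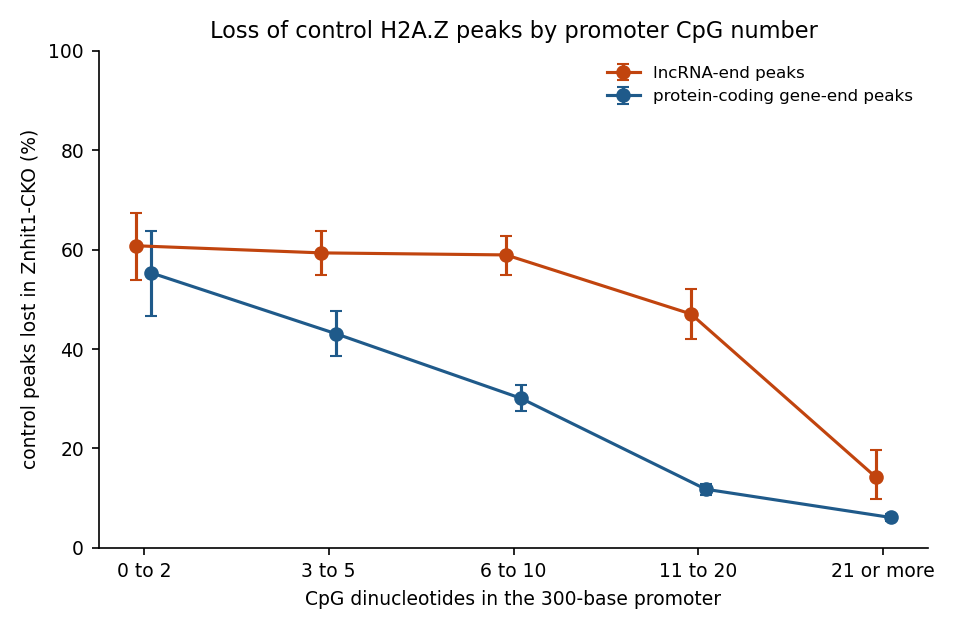
Percent of control H2A.Z peaks lost in Znhit1-CKO (y axis) by the number of CG dinucleotides in the 300-base promoter (x axis, 5 bins), for lncRNA-end and protein-coding gene-end peaks; points are shares and bars exact 95% binomial intervals. The lncRNA-end share is near 60% in the 3 poorest bins and 14.2% in the richest.

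Peaks lay around the start of transcription more often than around the far end. Strand could be had for 2573 peaks: 1719 were at a start, 646 at an end and 208 spanned the windows of both. Peak midpoints lay a median of 71.5 bp downstream of the start, and the start fell inside the peak at 59.9% of 1917 peaks. It did so at 70.2% of kept and 50.5% of lost peaks, and at 27.1% of Znhit1-CKO peaks with no control peak. Median widths fell in the same order (1031, 561.5 and 379 bp over all such peaks), and the part of width in these shares was not tested. Of peaks at a start 52.9% were lost and of those at an end 62.2%, an odds ratio of 1.53. Peaks at an end were also narrower, with a median of 611 bp against 776 bp. Once log2 width entered the fit, it was 1.05 (0.853 to 1.29).

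Loss rose with distance from protein-coding gene ends. It was 39.6% of 182 peaks at 1 to 2 kb, 49.4% of 362 at 2 to 5 kb, 52.6% of 991 at 5 to 20 kb, 54.1% of 1254 at 20 to 100 kb, and 63.4% of 573 beyond 100 kb. A distance 10 times as long went with an odds ratio of 1.40, and of 1.33 with log2 width (1.17 to 1.50, logistic regression, Benjamini-Hochberg adjusted p = 2.62e-05 over 7 features). Peaks whose midpoint lay inside a protein-coding gene were lost at 47.5% of 796, against 56.0% of 2566 outside. That odds ratio was 0.712, and 0.838 (0.697 to 1.01) with log2 width, where the interval includes no difference. Inside a protein-coding gene, 507 of the 529 peaks with both strands known were at a lncRNA gene on the opposite strand, and 45.8% of them were lost. A second lncRNA gene at the peak, found at 161 peaks, made no detectable difference (odds ratio 0.977, 0.712 to 1.34).

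The X chromosome carried few of these peaks and none were on the Y. Of 40 X-linked lncRNA-end peaks 17 were lost (42.5%, 27.0 to 59.1%), against 54.1% of 3322 on autosomes, and the odds ratio of 0.627 had an interval of 0.334 to 1.18. A differential region lay on 10 of the 40 (25.0%), against 48.1% on autosomes, an odds ratio of 0.359 (0.175 to 0.737) and of 0.352 with log2 width (adjusted p = 0.0289). Single autosomes ranged from 44.1% lost on chromosome 11 to 62.3% on chromosome 10. Their share with a region ranged from 41.2% on chromosome 18 to 59.1% on chromosome 2. The fit treats the 40 peaks of the X as independent. The share over X-linked control peaks of every class is not given here. A trait of the whole chromosome and one of its lncRNA-end peaks thus cannot be told apart.

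Counted by gene, 1517 of the 3048 lncRNA genes kept at least 1 of these peaks (49.8%, 48.0 to 51.6%) and 1531 lost all of them (50.2%). Over lncRNA and protein-coding genes together, counted with all their end peaks, 16.5% of 19504 lost all. That count takes in peaks shared by both kinds of gene, which the count of 3048 leaves out. With shared peaks, 4689 lncRNA genes had a control end peak. The part of this unlike counting in the gap was not tested. A differential region lay at 1611 lncRNA genes (52.9%, against 64.2% of both kinds of gene, again with all their end peaks).

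Genes whose symbols come from testis cDNA clones had the lowest share that kept a peak, followed by opposite-strand genes, whose interval overlapped theirs. RIKEN symbols carry the prefix of the cDNA library in which the transcript was found. Of 273 genes from testis libraries 106 kept a peak (38.8%, 33.0 to 44.9%), and of 284 from other libraries 188 did (66.2%, 60.4 to 71.7%). Predicted genes with Gm symbols kept 1126 of 2330 (48.3%). Counted by peak, 205 of 312 peaks at testis clones were lost (65.7%), against 52.8% of the other lncRNA-end peaks. The odds ratio was 1.72 (1.34 to 2.19), and 1.79 with log2 width (1.36 to 2.37, logistic regression, adjusted p = 9.17e-05 over 7 features). Without Gm and LOC genes it was 2.87 (2.14 to 3.84). With both width and CG number it was 2.02 (1.40 to 2.92) over the 1917 peaks with a promoter. Testis clone promoters held a median of 8 CG and those of other clones 9.

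Host genes of small nucleolar RNAs and microRNAs, whose spliced introns or exons are processed into the small RNA, kept a peak at 17 of 20 (85.0%, 62.1 to 96.8%). Their promoters had a median of 20 CG. Snhg15 had a peak of 1195 bp in control and 1268 bp in Znhit1-CKO, and Snhg17 one of 1349 and 1220 bp. Snhg3 (1281 and 1085 bp), Snhg20 (1100 and 969 bp) and Snhg7 (1225 and 960 bp) also kept most of the width. Others kept a much narrower peak. Widths were 1594 and 679 bp at Snhg8, 1266 and 578 bp at Snhg5, and 1106 and 379 bp at Snhg9. The 3 that lost theirs were Snhg11 (1141 bp in control), Mir124a-1hg (658 bp) and Mir1a-1hg (521 bp). Snhg11 and Mir124a-1hg are known from neurons, and Mir1a-1hg hosts a muscle microRNA. Mir9-3hg, the host of a microRNA also known from neurons, kept a peak (1636 bp in control, up to 457 bp in Znhit1-CKO). Whether loss went with tissue was not tested.

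Opposite-strand genes, named for the protein-coding gene they overlap or adjoin, kept a peak at 19 of 46 (41.3%, 27.0 to 56.8%). Wide peaks changed little at Zbtb11os1 (2018 bp in control, 2141 bp in Znhit1-CKO), Sox6os (2130 and 2081 bp) and Hk1os (2120 and 1834 bp). Other wide peaks of these genes were narrower in Znhit1-CKO, with 1926 and 902 bp at Chn1os3, 1989 and 1435 bp at Zeb2os, and 1521 and up to 478 bp at Oip5os1. The widest lost peak among these genes was that of Grip1os2, 1456 bp. Dio3os, antisense to an imprinted deiodinase gene, lost a peak of 617 bp although its promoter held 53 CG.

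**Figure D4:**
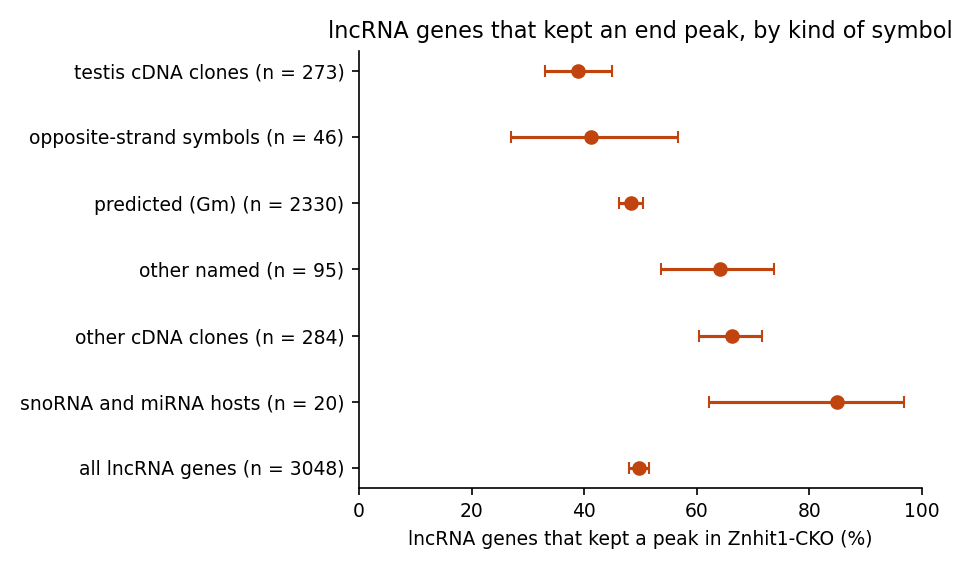
Percent of lncRNA genes that kept an end peak in Znhit1-CKO (x axis) by kind of gene symbol (y axis, with the number of genes); points are shares and bars exact 95% binomial intervals. Testis cDNA clones (38.8%) lie below all lncRNA genes (49.8%), and other cDNA clones (66.2%) and host genes (85.0%) lie above.

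All 4 annotated lncRNA genes on the X-inactivation list had a control peak, and 3 kept it. Over all annotated lncRNA genes 23.9% had such a peak, and 49.8% of those kept one. Xist RNA coats and silences an X chromosome in female somatic cells, and Jpx and Ftx lie beside it in the X-inactivation centre. The Xist peak was 1136 bp wide (chrX:103481477-103482612), lay inside the gene 621 bp from the start, had a differential region and was lost. The Jpx peak was 1503 bp in control and 491 bp in Znhit1-CKO, and that of Ftx 942 and 641 bp. Firre, an X-linked lncRNA that takes part in nuclear organisation, had a peak of 1546 and 1146 bp. The 3 kept peaks covered the start and were narrower in Znhit1-CKO, and none had a differential region.

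Imprinted lncRNA genes are expressed from 1 parental allele, and several silence neighbouring genes. Of 11 annotated, 5 had a lncRNA-end peak. Kept were the peaks of Kcnq1ot1 inside Kcnq1 (1894 bp in control, 1210 bp in Znhit1-CKO), Peg13 inside Trappc9 (1721 and 1658 bp) and Airn inside Igf2r (878 and 592 bp). Kcnq1ot1 and Peg13 had a differential region. H19 and Meg3, both expressed from the maternal allele, lost narrow peaks of 353 and 268 bp without a region. The Meg3 peak lay 781 bp from the start.

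A list of lncRNAs with known roles, some widely expressed and some restricted to a tissue, kept a peak at 16 of the 19 genes that had one, of 28 annotated. A differential region lay at 14 of the 19. Over all lncRNA genes with a peak, 49.8% kept one and 52.9% had a region. Malat1, abundant in nuclear speckles, had a peak of 816 bp in control and 667 bp in Znhit1-CKO. Neat1, the scaffold of paraspeckles, had one of 585 and 410 bp. The 2 genes are neighbours on chromosome 19, and both had a region. Dleu2, a microRNA host, had the widest peak of this list, 2829 bp in control and up to 2136 bp in Znhit1-CKO. Dancr had 1309 and 1007 bp and Lncpint 1466 and 1231 bp. All 5 kept a peak over most of the control one. So did Chaserr, which restrains its neighbour Chd2 (737 and 607 bp), and Lncenc1, known from embryonic stem cells (1173 and 1077 bp). At Pvt1, beside Myc, the widths were 1064 and 703 bp.

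Other members of that list kept a much smaller peak. Oip5os1, which binds a microRNA, had 1521 bp in control and up to 478 bp in Znhit1-CKO. Trp53cor1, upstream of Cdkn1a and induced by p53, had 1500 and 651 bp. Norad, which binds Pumilio proteins, had 559 and 193 bp. None of the 3 Znhit1-CKO peaks reached the width of its control peak. Bvht and Carmn, neighbouring genes with roles in heart and smooth muscle, had 1388 and 308 bp and 1470 and 304 bp. Lost were the peaks of Miat (1506 bp), Paupar, which lies beside Pax6 (951 bp), and Platr10 (495 bp). The Miat and Paupar peaks had a region, and that of Platr10 had none.

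Developmental lncRNAs kept a peak at 9 of 19 genes, of 36 annotated, and 12 of the 19 had a differential region, beside 49.8% and 52.9% of all lncRNA genes with a peak. In the Hox clusters, Hotair kept a peak of 888 bp in control and 483 bp in Znhit1-CKO. Hotairm1 kept 874 and 628 bp and Hoxb3os 605 and 357 bp. Hoxaas3 (556 bp), Hoxa11os (779 bp) and Halr1 (1072 bp), all in or near the HoxA cluster, lost theirs. Six3os1 (210 bp), Nkx2-2os (386 bp), Vax2os (540 bp) and Tbx3os1 (448 bp), each named for the transcription factor gene beside it, lost theirs too, whereas Hoxb3os and Zeb2os, named likewise, did not. Apart from Halr1 and Miat, the lost peaks of this list were at most 779 bp wide in control. Wide peaks were kept at Zeb2os (1989 and 1435 bp), Mir9-3hg (1636 and up to 457 bp) and Pantr2, near Pou3f3 (1387 and 1354 bp). Dnm3os, a microRNA host inside Dnm3, kept 662 and 270 bp, and Mir100hg 1066 and 982 bp. The Znhit1-CKO peak was the wider at Mir99ahg, a microRNA host, with 1311 bp in control and 1663 bp in Znhit1-CKO. Of the 8 symbols on the list of lncRNAs with roles in germ cells 3 matched an annotated lncRNA gene. Kcnmb4os1 and Kcnmb4os2 had a control peak that also lay at a protein-coding gene end and was left out by the rule, and Tslrn1 had no control peak at an end.

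**Figure D5:**
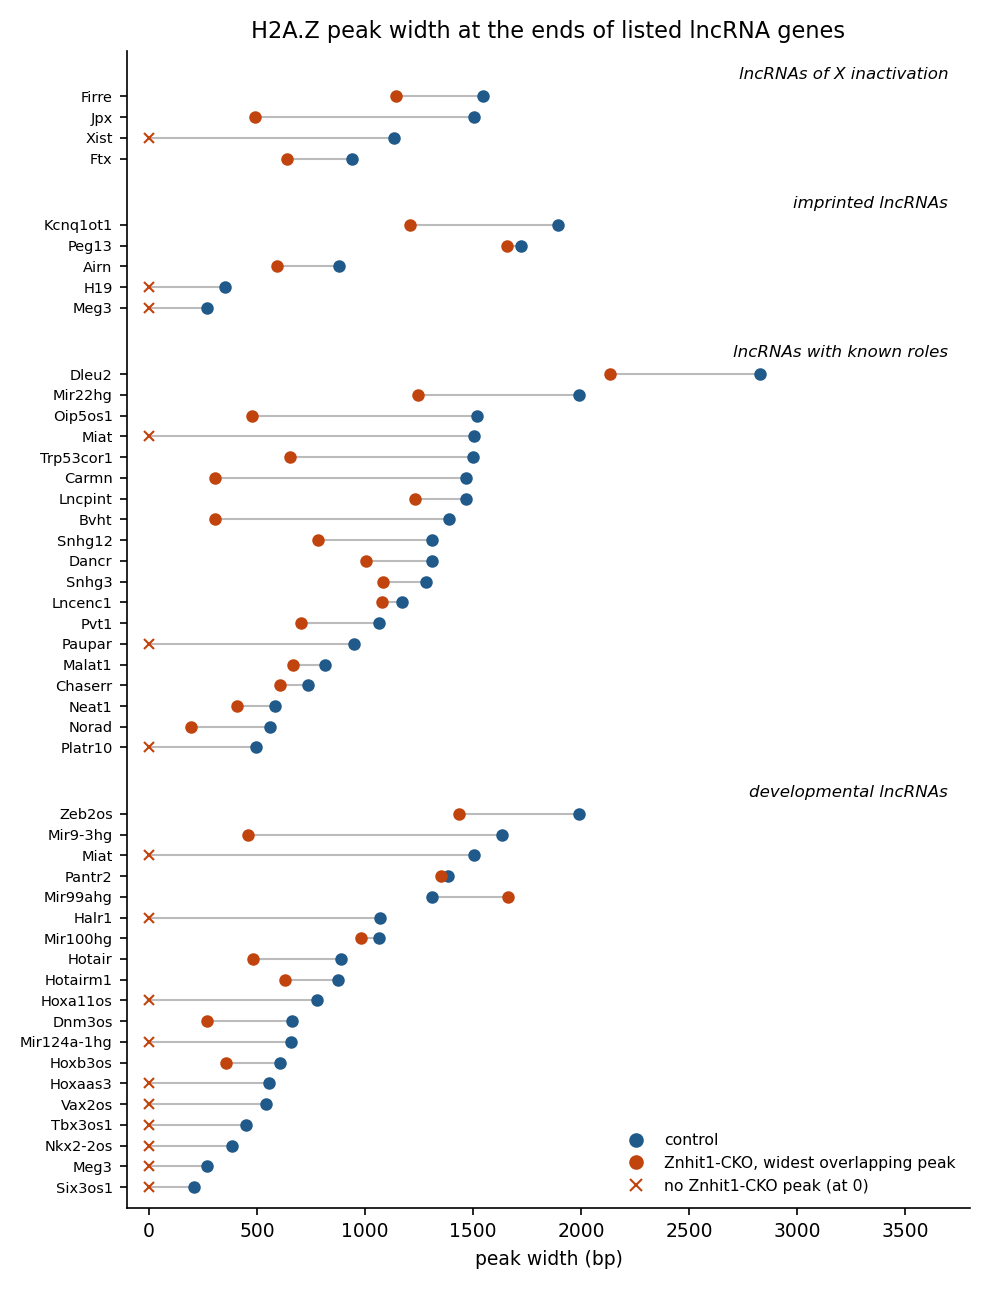
Width in bp (x axis) of the widest H2A.Z control peak at the ends of each listed lncRNA gene (y axis, by list) in blue and of the widest Znhit1-CKO peak overlapping it in orange, with a cross at 0 where there was none. Miat and Meg3 are on more than 1 list; of the 4 X-inactivation genes only Xist has a cross, and Mir99ahg alone has its orange point to the right.

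Of the 8 widest lost peaks at genes without Gm or LOC symbols, which exclude most lncRNA genes, 7 lay at RIKEN clones, 3 of them inside a protein-coding gene. Most such genes with a control peak were RIKEN clones, 273 from testis libraries and 284 from others. Beside them stood 20 host genes, 46 opposite-strand genes and 95 other named genes. That of 1700049E22Rik was 1703 bp wide (chr6:100526108-100527810), covered the start and lay 44001 bp from Shq1. 4933411E08Rik lost a peak of 1594 bp over its start and kept another. 4930404K13Rik, inside Hs6st3, also lost 1 of 2, of 1581 bp. The peak of 5730488B01Rik (1607 bp) lay inside Pax5, and that of 2410003L11Rik (1550 bp) lay 22854 bp from Srcin1. The peak of 4930552P12Rik (1531 bp) covered a start 38759 bp from Tcf7l2. Of the 8 widest, Miat included, 7 had a differential region, beside 62.6% of all lncRNA-end control peaks of 1226 bp or more. The peak of 4833428L15Rik inside Dscaml1 (1646 bp) had none. This gene had another control peak, which was kept.

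Among the widest kept peaks at such genes some barely changed and others shrank. At 1700031P21Rik, a testis clone 30108 bp from Arhgap5, the control peak of 3898 bp met a Znhit1-CKO peak of 3414 bp. A930004D18Rik had 3472 and 3308 bp near Skida1, and 4921504A21Rik, inside Magi2, had 2862 and 2908 bp. These 3 kept close to their full width. The widths were 3266 and 2361 bp at 4921507G05Rik and 3107 and 1521 bp at 2410080I02Rik. At 1810021M19Rik, inside Zmynd8, a control peak of 3007 bp held 3 Znhit1-CKO peaks, the widest of 1317 bp.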

How the data were processed

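The authors deposited 3 lists of intervals, which give only the position of each interval: control peaks, Znhit1-CKO peaks and 24367 differential regions, which the list's own name credits to edgeR. Per the submitters' processing notes the build was mm10 and the tools were MACS2 2.2.4, Picard 2.20.7, SAMtools 1.9, BWA 0.7.17 and cutadapt 2.5. The sources used here do not give peak thresholds, any pooling of replicates or the direction of differential regions. The differential regions had a median width of 400 bp, and a peak was said to have one where they overlapped by at least 1 bp.

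RefSeq (GRCm38.p6) gave the gene ends, without strand, and its promoter table the starts. Distances ran from the nearest base of a peak. A fold or score per peak had been planned as the measure of strength and was replaced by width. Odds ratios came from logistic regression and log2 width differences from linear regression, over all control peaks or, for features, over the lncRNA-end ones. Shares carry exact Clopper-Pearson 95% intervals. Scripts were tested on simulated data. Fits used statsmodels 0.14.6, intervals scipy 1.17.1, tables pandas 2.3.3 and numpy 2.4.6, and figures matplotlib 3.10.9, under Python 3.11.15.

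The peaks and gene lists were chosen with earlier results of these data known. Genes were named by rule, leaving out Gm and LOC symbols: the 8 widest lost, the 8 widest kept and the 5 widest Znhit1-CKO-only peaks, the 5 lowest and 3 highest width ratios, and listed genes with a peak. Alternatives were 500 bp and 2 kb windows, distances from midpoints, a gap of up to 500 bp, an overlap of at least 50% in both directions, peaks of at least 500 bp, autosomes only, no Gm or LOC genes, log2 width as a covariate, and errors clustered by chromosome. The CG covariates were added after the data were seen.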

Additional observations from a re-analysis of the deposited data

How the results depend on the processing

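Of 94 alternative values, 71 kept their direction and their side of the threshold or moved by less than their error. The odds ratios for loss against both other classes and for testis clones kept theirs under every alternative run, though that for testis clones rose from 1.72 to 2.87 without Gm and LOC genes. The odds ratio for a differential region turned with log2 width as a covariate, from 0.621 to 1.15 against protein-coding gene ends and from 1.19 to 0.913 against peaks away from gene ends. The latter was 1.02 (0.936 to 1.11) for peaks of at least 500 bp. The share of control peaks kept (46.0%) was 33.6% when the overlap had to reach 50% of each, 48.6% with a gap of up to 500 bp, 43.4% and 48.7% with 2 kb and 500 bp windows, 55.6% for peaks of at least 500 bp and 50.3% without Gm and LOC genes. The share of lncRNA genes that kept a peak (49.8%) was 36.8% with the 50% overlap, 57.9% for peaks of at least 500 bp and 54.5% without Gm and LOC genes. Znhit1-CKO peaks with no control peak made up 15.2%, and 41.6% with the 50% overlap, 13.1% with the gap, 19.2% and 12.4% with 2 kb and 500 bp windows, 6.38% for peaks of at least 500 bp and 9.31% without Gm and LOC genes. The share with a differential region (47.9%) was 49.9% with 500 bp windows and 57.1% for peaks of at least 500 bp. The median log2 width ratio (-0.32) was -0.23 with the 50% overlap, which leaves out the most unequal pairs, and -0.37 for peaks of at least 500 bp. The number of Znhit1-CKO over control peaks (56.9%) was 49.0% for peaks of at least 500 bp. Except where stated, the cause was not tested. No paired analysis was possible because each genotype has 1 peak list, and leaving out a replicate was not possible for the same reason. Peak strength could not be used as an alternative, since no list carries it.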

Other observations

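Letters of known promoter motifs were counted on both strands of the 300-base promoters, with the share of all 32841 promoters in the table beside them. The letters AACNGTC, part of the sites bound by MYB proteins, stood in 20 of 118 promoters at lost testis clone peaks (16.9%, 10.7 to 25.0%). They stood in 10.0% of 998 promoters at lost and 7.94% of 919 at kept lncRNA-end peaks, in 9.24% of all lncRNA promoters and in 8.01% of all promoters. TGACGTCA, the CRE, stood in 1.09% at kept and 1.30% at lost peaks, against 0.975% of lncRNA and 1.79% of all promoters. CCAAT stood in 32.0% at kept and 35.7% at lost peaks, against 36.0% and 37.4%. At lost testis clone peaks the share was 2.54% for the CRE and 42.4% for CCAAT. The NRF1 motif stood in 3.70% at kept and 1.80% at lost peaks and in 0 of the 118 at lost testis clones, against 1.35% of lncRNA and 4.60% of all promoters. Promoters at kept testis clone peaks were not counted apart. The shares at lost testis clone peaks therefore cannot be tied to loss rather than to testis clones as such. None of these motifs contains another, and a match is a description of letters only.

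Loss was also counted just inside and just outside the rule's distances. In the last 200 bp inside the lncRNA limit 65.9% of 252 peaks were lost, and in the first 200 bp outside it 66.2% of 234 were. At the protein-coding limit, 42.6% of the 47 lncRNA-end peaks in the first 200 bp beyond it were lost, and 37.7% of the 69 left out just within it were.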
